A study of Mus musculus with 21 samples.

Results

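The response of cultured mouse aortic smooth muscle cells to 24 h of tumour necrosis factor alpha (TNF) was taken from 8 of the 21 arrays of the series, the 4 that received TNF alone and the 4 that received PBS alone for the same time. The arrays were chosen by their labels, and every named gene that passed a filter on signal was compared. Each carries a number from 0 to 3 in its title, and arrays of the same number were compared as a pair. The cells were grown out of aortas of C57BL/6J males aged 10 to 12 weeks and kept in DMEM/F12 with 10% foetal calf serum. All cultures were fed 24 h before stimulation, and the stimuli were added in PBS. The TNF group received TNFalpha at 1 ng/ml, and the PBS group received PBS only. A further 4 arrays at 24 h came from cells given an antibody against LTBR, the lymphotoxin beta receptor (10 µg/ml), and serve for a direct comparison. The antibody was used as an agonist, so these arrays are stimulated too and are not a blank control. They entered the fit together with 3 arrays that received both TNF and the antibody. The question, as the series title gives it, is how signalling through the TNF receptor bears on the turn of these cells towards lymphoid tissue organizers, stromal cells that attract and hold lymphocytes.

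TNF is an inflammatory cytokine that binds TNF receptors on the cell surface. The receptor gathers the adaptor TRADD, TRAF proteins and cIAP ubiquitin ligases, which switch on the IKK kinases. IKK then marks the IkB inhibitors for destruction and frees NF-kB, which enters the nucleus and turns on chemokines, adhesion molecules and its own inhibitors, among them IkB-alpha and A20. In the vessel wall, smooth muscle cells exposed to inflammatory cytokines are known to make chemokines and adhesion molecules that draw leukocytes and to lower their contractile proteins.

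Signal is given in linear units, as deposited, with the same trimmed mean on each of the 8 arrays. Median signal was 107.5 to 139.0, and the 3'/5' ratio of the control probe sets was 0.713 to 0.762 for Gapdh and 1.198 to 1.396 for Actb. Of the smooth muscle markers, Acta2, the smooth muscle actin gene, was at 17534.9 to 19650.9 and Tagln at 12789.0 to 15454.5 on the 8 arrays, while desmin (Des, 25.1 to 478.3) and Myocd (32.4 to 190.8) were low. The cartilage collagen gene Col2a1 was at 10340.3 to 20019.7, an observation made after its values were seen. The pair numbered 0 stood apart. The summed signal of 18 endothelial markers was 25229.8 with PBS and 26514.3 with TNF on number 0, against 3270.6 to 6784.1 on the other 6 arrays. Myh11, the smooth muscle myosin heavy chain, was at 152.1 and 150.6 on number 0 and at 529.2 to 3337.8 elsewhere. Macrophage markers, 12 genes in all, were highest on number 3, at 5175.4 with PBS and 4212.9 with TNF, against 1295.5 to 2246.9 on the other arrays. No tested marker of the endothelium (16 genes), of macrophages (7), of lymphocytes (2) or of adipocytes (2) was called between TNF and PBS by limma at an adjusted p under 0.05, while 4 of 8 smooth muscle markers and 1 of 8 adventitial fibroblast markers (Cd34) were lower. In these bulk samples fewer cells of a type and less RNA per cell cannot be told apart. Whether a number marks its own culture or animal is not in the labels. The p-values therefore reflect the spread among these samples alone, which may be technical, and the number of arrays limits the precision.

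TNF raised 380 of the 12454 genes tested (3.05% of them) and lowered 358 (2.87%), 738 genes in all (5.93%), with the largest changes on the side of the rises. A call here is an adjusted p under 0.05 in limma, with the array number as a block. Of the called genes 76 rose (0.61%) and 4 fell (0.0321%) by at least 2-fold, and 151 rose (1.21%) and 59 fell (0.474%) by at least 1.5-fold. The median over all genes was -0.02 on the log2 scale, with 5% of genes below -0.35 and 5% above 0.30. Signs were shared by all 4 pairs in 369 of the 380 risers and 355 of the 358 fallers, where 10.5% of all genes were higher and 14.4% lower in every pair. All TNF arrays lay above all PBS arrays in 141 of the risers, against 1.6% of all genes, and below them in 41 of the fallers, against 0.939%. Fold changes are on the scale of log2(signal + 10.1), which understates the change of genes with low signal.

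The split between rises and falls depended on the scaling and on the pairing. With array medians set equal, 344 genes rose and 139 fell, so that 71.2% of calls were rises in place of 51.5%. Without the number as a block the fit called 42 rises (0.337%) and 0 falls (584 genes at an unadjusted p under 0.05), and each of the 42 passed with the block too. Of the 119 named genes that were called with the block, 88 were not called without it. Leaving out number 0 left 326 rises (2.62%) and 243 falls (1.95%), number 1 left 158 and 118, number 2 left 237 and 176, and number 3 left 213 and 163. Leaving out the array of number 1 with PBS left 221 falls, and that of number 1, 2 or 3 with TNF left 210, 222 and 201.

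**Figure D1:**
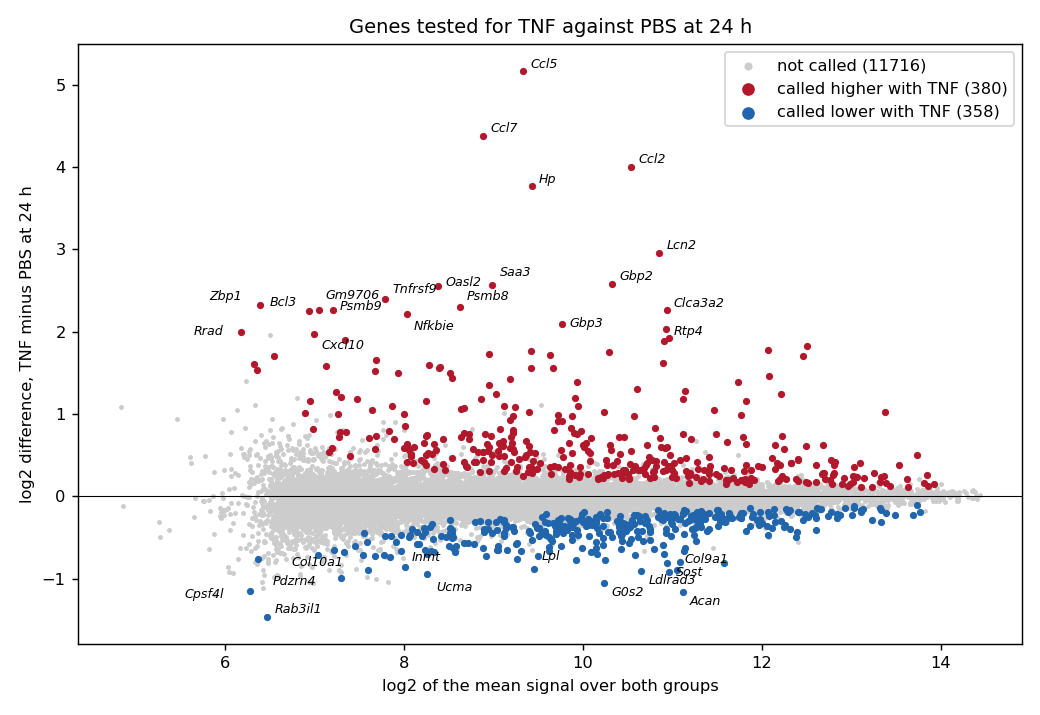
Each point is 1 of the 12454 genes tested, with the log2 of its mean signal over both groups on the x axis and its log2 difference, TNF minus PBS at 24 h, on the y axis. Called rises (380) are red and called falls (358) blue, and the 20 largest rises and 12 largest falls are named: the rises reach 5.16 (Ccl5) and the falls -1.46 (Rab3il1).

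The receptor and its adaptors were mostly level while cIAP genes rose. In the receptor complex list 3 of 20 tested genes rose and 0 fell: Birc3 (log2 difference 1.08) and Birc2 (0.57), which encode the cIAP ubiquitin ligases, and Traf2 (0.44), the adaptor that recruits them. Birc3 read 281.0, 415.3, 430.6 and 404.7 on the PBS arrays numbered 0 to 3 and 674.0, 886.6, 1106.2 and 647.7 on the TNF arrays. Every TNF array was above every PBS array, a 2.11-fold rise (log2 SE 0.14, adjusted p = 0.00045). The TNF receptor gene Tnfrsf1a differed by -0.03 (SE 0.07, adjusted p = 0.884) and Tnfrsf1b by 0.29 (SE 0.16, adjusted p = 0.36), neither past the threshold. Tradd (-0.12), Fadd (-0.05) and Traf6 (-0.01) were not called either. The list median was -0.01, beside -0.02 over all genes, and it was 0.03 with equal array medians. The count of 3 fell to 1 without number 1 or number 2 and to 1 without the block.

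Among the NF-kB subunits and IKK kinases 3 of 8 tested genes rose and 0 fell, with a median of 0.17. Nfkb2, which encodes the p100 precursor of the non-canonical pathway, read 247.5, 202.2, 195.6 and 113.6 with PBS and 538.2, 694.3, 433.4 and 501.1 with TNF. The groups did not overlap, and the fold change was 2.82 (log2 SE 0.14, adjusted p = 4.81e-05). A second probe set for Nfkb2 gave a log2 difference of 0.70. Relb, its partner subunit, rose by 1.43 (SE 0.14, adjusted p = 6.35e-05) and Ikbke, an IKK-related kinase, by 1.53 (SE 0.30, adjusted p = 0.00741), a call that was lost without number 2. Rela (0.18), Ikbkb (0.04), Ikbkg (-0.05) and Map3k14, the kinase NIK (0.07), did not pass the test. Nfkb1 and Chuk were not tested as named genes.

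Inhibitors of the pathway rose together: 10 of 15 tested IkB proteins and feedback inhibitors were higher with TNF and 0 lower, with a median of 0.54, and 3 were called without the block. Nfkbie, which encodes IkB-epsilon, read 138.3, 103.3, 61.7 and 49.1 with PBS and 465.4, 539.0, 507.3 and 234.3 with TNF, a 4.64-fold rise (log2 SE 0.16, adjusted p = 2.89e-06). The lowest TNF array was above the highest PBS array. The filter favours such a separation, since Nfkbie exceeded the array median on too few PBS arrays to pass on them. Nfkbia, the gene for IkB-alpha, had far higher signal, at 5623.4 to 8567.3 with PBS and 12787.3 to 16733.4 with TNF, and rose 2.03-fold (SE 0.06, adjusted p = 5.36e-07). Bcl3, a nuclear IkB protein, rose from 11.2 to 101.6 with PBS to 175.9 to 228.1 with TNF (log2 difference 2.25, SE 0.33, adjusted p = 0.00107), and its difference was 0.74 on number 0 and 1.94 to 3.32 on the other numbers. Tnfaip3, which encodes the deubiquitinase A20, rose by 1.2 (SE 0.15, adjusted p = 0.000352). Tnfaip2 (1.73), Ier3 (0.72), Tnip1, an A20 partner (0.59), Nfkbib (0.54), Nfkbiz (0.35) and the deubiquitinase gene Cyld (0.31) also rose.

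CC chemokines that attract monocytes and T cells gave the 3 largest fitted differences. Ccl5, a chemokine for T cells and monocytes, read 89.8, 13.2, 10.1 and 17.0 on the PBS arrays numbered 0 to 3, and 656.0, 1470.9, 1534.7 and 1365.7 with TNF. Number 0 was the highest of the PBS arrays and the lowest of the TNF arrays, and the groups did not overlap. The rise was 35.8-fold (log2 difference 5.16, SE 0.47, adjusted p = 3.24e-05), and 5.97 on the log2 scale without number 0. PBS signal on numbers 1 to 3 was near the added 10.1 and far below the array medians, so the size depends on that constant: the difference was 5.73 with a pseudocount of 1 and 4.4 with 32. The gene passed the filter only through stimulated arrays. So did Ccl7, Bcl3, Cxcl10, Tnfrsf9, Zbp1, Gm9706, Psmb9 and Rrad, whose PBS signals were all below the array medians. Hp, Nfkbie, Oasl2, Ccl2, Saa3 and Psmb8 exceeded the median on fewer PBS arrays than the filter's 3, so they needed stimulated arrays too. For all of these genes the filter favours a rise, so a lack of overlap only describes the arrays and is no support. Ccl2, which attracts monocytes, read 374.7, 236.5, 110.9 and 56.7 with PBS and 2464.5, 4103.1, 2916.1 and 1683.4 with TNF, a 16.0-fold rise (SE 0.26, adjusted p = 9.64e-07). Ccl7, a related monocyte chemokine, read 47.8, 37.6, 26.8 and 11.1 with PBS and 523.1, 1811.5, 866.3 and 467.0 with TNF, a 20.8-fold rise (SE 0.24, adjusted p = 4.29e-07). Each pair rose in all 3 genes, and the number 0 pair had the smallest difference in each. In the CC chemokine list 3 of 10 tested genes rose and 0 fell, the same count without the block, with a median of 0.14. Ccl6 (-0.46, adjusted p = 0.0858), Ccl9 (0.38, adjusted p = 0.0963) and Ccl8 (0.07) were not called. A second Ccl6 probe set differed by -1.29, and Ccl6 was called lower with a pseudocount of 32 (-1.06, adjusted p = 0.015), with the mean of probe sets (-0.88, adjusted p = 0.0116), with a filter on the mean (-1.29, adjusted p = 0.0201) and without the variance trend (adjusted p = 0.00536). CC chemokine genes are similar in sequence, so probe sets may share signal.

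Of 6 tested CXC and CX3C chemokine genes 4 rose and 0 fell, with a median of 0.71, although 0 were called without the block. Cxcl16, a membrane-bound chemokine and scavenger receptor, read 908.2, 240.6, 249.1 and 257.6 with PBS and 1538.0, 986.0, 1158.9 and 1007.8 with TNF. Every TNF array was above every PBS array, although PBS number 0 came close to the lowest of them, and the log2 difference was 1.71 (SE 0.17, adjusted p = 6.48e-05). Cxcl10, an interferon-inducible T cell chemokine, read 84.2, 13.9, 32.7 and 77.7 with PBS and 200.9, 190.5, 258.4 and 164.0 with TNF (log2 difference 1.97, SE 0.40, adjusted p = 0.0095). Its call was lost without number 1 or number 2. Cx3cl1, the gene of fractalkine, rose by 0.80 (SE 0.13, adjusted p = 0.00215) and Cxcl1, a neutrophil chemokine, by 0.62 (SE 0.13, adjusted p = 0.0113), and 2 further probe sets for Cxcl1 gave 1.11 and 2.06. Without number 1 or number 2 the count was 2, and the Cxcl1 call was also lost without number 3 or without the TNF array of number 1.

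**Figure D2:**
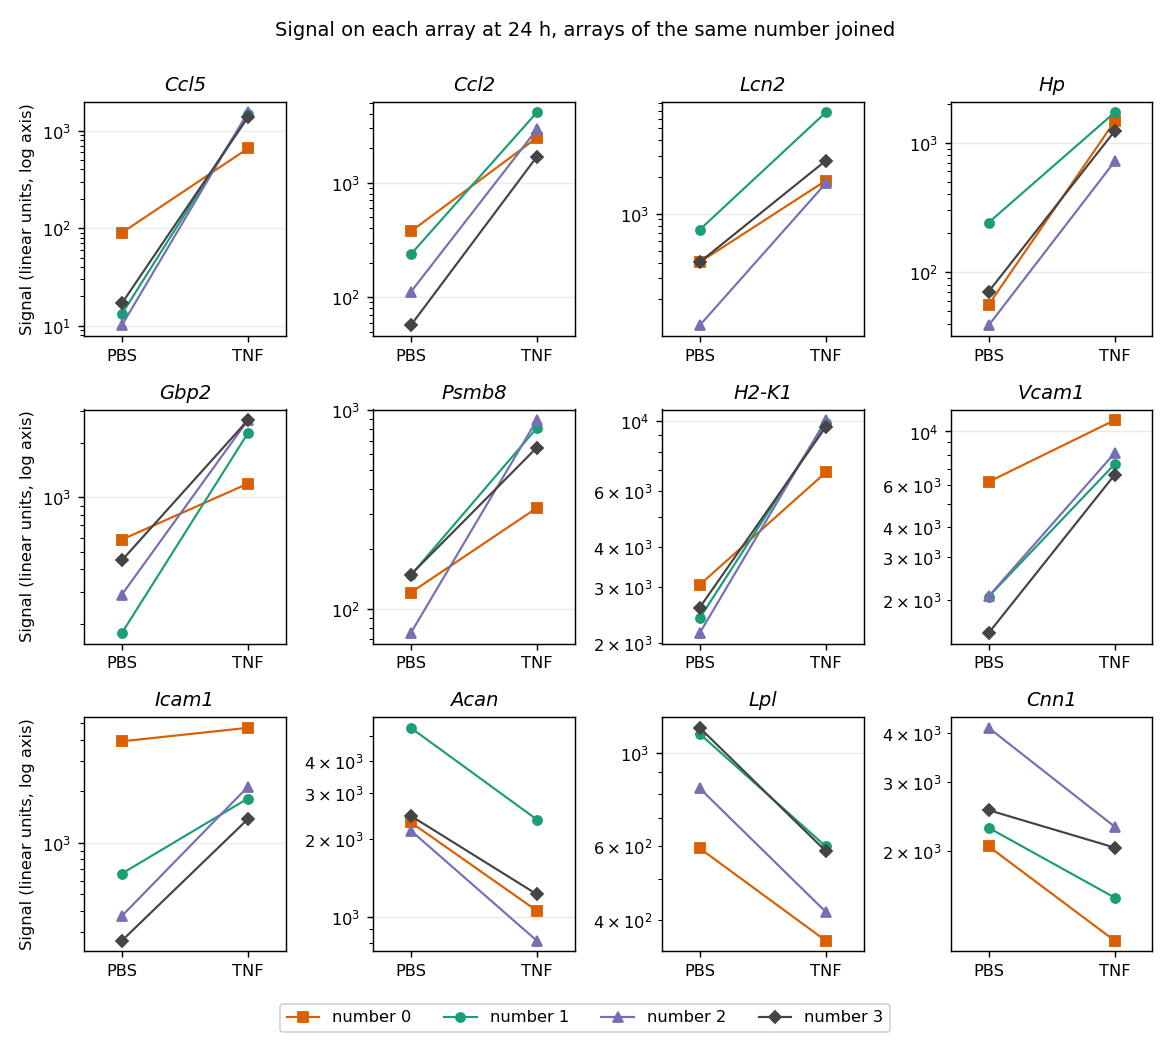
Signal in linear units on a log axis for 12 genes, with PBS and TNF at 24 h on the x axis and arrays of the same number joined by a line. Ccl5, Ccl2, Lcn2, Hp, Gbp2, Psmb8, H2-K1, Vcam1 and Icam1 rise on every number, Icam1 least on number 0 (0.26 on the log2 scale), and Acan, Lpl and Cnn1 fall on every number.

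Genes of the acute phase, the secreted response to inflammation best known from liver, formed another leading group. Of 9 tested, 6 rose and 0 fell, with a median of 1.05, and 1 was called without the block. Hp, the gene of the haemoglobin scavenger haptoglobin, read 56.2, 241.7, 38.9 and 70.9 with PBS and 1459.5, 1708.9, 715.3 and 1227.2 with TNF, a 13.6-fold rise (log2 SE 0.21, adjusted p = 4.29e-07). Lcn2, which encodes a siderophore-binding lipocalin, read 402.7, 742.3, 122.5 and 403.1 with PBS and 1869.4, 6752.7, 1777.1 and 2720.7 with TNF, a 7.77-fold rise (SE 0.17, adjusted p = 4.29e-07). Number 1 was the highest in both groups for Lcn2, and neither gene overlapped between groups. Hp exceeded the array median on too few PBS arrays to pass the filter on them, so the filter favours such a separation for Hp. Saa3, a serum amyloid gene, read 133.5, 132.7, 53.3 and 128.7 with PBS and 318.9, 2086.0, 358.7 and 861.6 with TNF (log2 difference 2.57, SE 0.47, adjusted p = 0.00505), a call that was lost without number 3. Lbp, for the protein that binds lipopolysaccharide, rose by 1.60 (SE 0.16), Ptx3, a pentraxin, by 1.05 (SE 0.11) and Cp, the gene of the copper carrier ceruloplasmin, by 0.76 (SE 0.05). Of 17 tested complement genes 3 rose and 0 fell (median -0.05): Cfb, factor B of the alternative pathway (1.5, SE 0.18, adjusted p = 0.000246), C1s1 (0.75) and C1ra (0.71), both proteases of the classical pathway. None of these 3 was called without the block, and C3 was not tested as a named gene.

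The machinery that prepares peptides for T cells rose from protease to presenting molecule. In the immunoproteasome list 5 of 7 tested genes rose and 0 fell, with a median of 0.66, and 4 rose without the block. Psmb8, an inducible catalytic subunit, read 120.3, 147.0, 75.3 and 148.2 with PBS and 321.0, 810.6, 888.2 and 645.9 with TNF, a 4.90-fold rise (log2 SE 0.23, adjusted p = 6.48e-05). Psmb9 and Psmb10, the other inducible subunits, rose by 2.26 (SE 0.33) and 1.56 (SE 0.18), and Psme1, an activator of the proteasome, by 0.66 (SE 0.09). The constitutive subunit genes differed less, Psmb6 by 0.19 (adjusted p = 0.0397), Psmb5 by 0.03 and Psmb7 by -0.06, the latter pair not called.

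Of 12 tested genes of MHC class I and peptide loading 9 rose and 0 fell, with a median of 0.61, and 5 were called without the block. H2-K1, a classical class I heavy chain, read 3054.3, 2399.4, 2154.4 and 2590.6 with PBS and 6879.6, 9831.0, 10043.4 and 9559.1 with TNF, a 3.54-fold rise (log2 SE 0.12, adjusted p = 9.64e-07). The lowest TNF array was more than double the highest PBS array. Tapbp, the gene of the loading protein tapasin, read 2946.7, 3377.6, 2639.9 and 2389.8 with PBS and 6135.1, 7423.3, 6785.2 and 6404.9 with TNF (log2 difference 1.24, SE 0.06, adjusted p = 5.92e-08). H2-D1 rose by 1.46 (SE 0.13), the trimming peptidase gene Erap1 by 0.65 (SE 0.09), the peptide transporter genes Tap1 and Tap2 by 0.62 (SE 0.12) and 0.60 (SE 0.11), and B2m, the light chain, by 0.26 (SE 0.03). H2 heavy chain genes are near-identical in parts, so their probe sets may share signal, and other probe sets for H2-K1 gave 1.51 to 3.66. In the class II list 1 of 6 tested genes rose: Cd74, the invariant chain, at 98.7 to 176.1 with PBS and 223.9 to 316.5 with TNF (log2 difference 1.05, SE 0.19, adjusted p = 0.00479, lost without number 1). H2-Eb1 (0.14), H2-DMa (0.04) and H2-DMb2 (-0.09) were not called.

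Interferon-inducible genes rose broadly, with differences that varied between the numbers. All 9 tested interferon-inducible GTPase genes rose, with a median of 1.31, the highest of the 32 lists, and 4 were called without the block. Gbp2, a guanylate-binding protein that acts against intracellular pathogens, read 584.9, 178.2, 290.3 and 449.1 with PBS and 1191.3, 2262.3, 2671.1 and 2671.4 with TNF, a 5.97-fold rise (log2 SE 0.31, adjusted p = 0.000236). Gbp3 rose by 2.10 (SE 0.28), Gbp6 by 1.59 (SE 0.25; 3.6 in a second probe set and 2.59 with their mean) and Iigp1, an immunity-related GTPase, by 1.38 (SE 0.29), and Gbp genes are similar enough to share signal between probe sets. Median differences of the list were 0.77, 1.62, 2.12 and 0.82 on numbers 0 to 3. In the list of antiviral effectors 23 of 40 tested genes rose and 0 fell, with a median of 0.76, and 30 were higher in every pair. Oasl2, an oligoadenylate synthetase-like gene, read 68.2, 71.6, 50 and 170.3 with PBS and 235.1, 598.3, 825.3 and 651.8 with TNF, a 5.87-fold rise (SE 0.32, adjusted p = 0.0004). Bst2, which encodes the virion tether tetherin, rose from 639.9 to 913.2 with PBS to 1898.0 to 5086.1 with TNF (log2 difference 1.92, SE 0.22, adjusted p = 0.00016). Rtp4 (2.03, SE 0.31) and Zbp1, a nucleic acid sensor (2.32, SE 0.43, lost without number 3), rose as well, and so did Ifit1 (1.75), Oas1a (1.55), Ifih1 (1.09) and Ddx58 (0.83). The antiviral count was 3 without the block, 9 without number 1 and 27 without number 0. Isg15 was not tested as a named gene.

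Of 14 tested IRF and STAT genes 4 rose and 0 fell, with a median of 0.22. Irf7, the factor that drives interferon genes, read 151.9, 258.3, 226.3 and 390.9 with PBS and 264.0, 555.4, 1093.6 and 1027.2 with TNF (log2 difference 1.36, SE 0.22, adjusted p = 0.00219). The groups overlapped, since TNF number 0 was below PBS number 3, but each pair rose. Irf1, a factor induced by interferon-gamma and TNF, read 766.7 to 886.2 with PBS and 1124.7 to 1368.6 with TNF without overlap (log2 difference 0.60, SE 0.07, adjusted p = 0.000236). Stat2 (0.73, adjusted p = 0.0225) and Irf9 (0.55, adjusted p = 0.032), which join in the factor that answers type I interferon, differed by 0.10 and 0.05 on number 0. Both calls were lost without number 1, 2 or 3 or any of the TNF or PBS arrays of these numbers. The count was then 2 in each of these cases, and 1 without the block.

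Promoters of some of the genes that rose most are shown, all of them windows that hold a match. Lists of NF-kB feedback genes and of interferon-inducible genes both rose, and the factors known for them bind different letters. Both strands of the 250 bases before each start in RefSeq (GRCm38.p6) were searched for the NF-kB consensus, for its stricter form (GGG, any 2 bases, TTTCC) and for the interferon-stimulated response element, ISRE (GAAA, any 2 bases, GAAA). Matches may overlap each other, and a match is a description of the letters, not of binding. Of the 20 largest rises 12 had a promoter in the table, and 8 (Ccl5, Ccl7, Ccl2, Hp, Zbp1, Gm9706, Rtp4 and Rrad) had no entry. The NF-kB consensus stood in 4 of the 12 (Tnfrsf9, Nfkbie, Cxcl10 and Clca3a2) and in 3 of the 11 largest falls with an entry. It stood in 8.2% of all 27025 genes with a promoter and in 10.8% of the 10056 tested genes with one. The stricter form stood in 2 of the 12, 0 of the 11 and 1.7% of all genes. The ISRE stood in 5 of the 12 (among them Gbp2, Gbp3, Saa3 and Cxcl10), in 1 of the 11 and in 3.5% of all genes. Lcn2, Oasl2, Psmb8, Psmb9 and Bcl3, also among the 12, held no match to either. Each window shown is printed 5' to 3' on the strand of its gene, in lower case, with matches to the NF-kB consensus or the ISRE in capitals. Tnfrsf9 lies at chr4:150927749-150927998 (plus strand), Cxcl10 at chr5:92348890-92349139 (minus), Gbp2 at chr3:142620413-142620662 (plus), Gbp3 at chr3:142559794-142560043 (plus) and Nfkbie at chr17:45555450-45555699 (plus).
Tnfrsf9: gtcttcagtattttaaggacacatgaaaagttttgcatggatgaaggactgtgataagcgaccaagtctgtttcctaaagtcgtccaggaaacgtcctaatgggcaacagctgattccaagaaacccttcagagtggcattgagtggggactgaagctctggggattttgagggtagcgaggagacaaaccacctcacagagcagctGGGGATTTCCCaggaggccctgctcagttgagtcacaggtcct
Cxcl10: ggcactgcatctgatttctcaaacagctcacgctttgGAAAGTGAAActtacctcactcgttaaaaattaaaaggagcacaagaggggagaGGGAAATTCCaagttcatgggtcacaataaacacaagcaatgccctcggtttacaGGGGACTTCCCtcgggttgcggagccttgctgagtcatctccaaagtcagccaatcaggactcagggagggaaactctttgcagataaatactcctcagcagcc
Gbp2: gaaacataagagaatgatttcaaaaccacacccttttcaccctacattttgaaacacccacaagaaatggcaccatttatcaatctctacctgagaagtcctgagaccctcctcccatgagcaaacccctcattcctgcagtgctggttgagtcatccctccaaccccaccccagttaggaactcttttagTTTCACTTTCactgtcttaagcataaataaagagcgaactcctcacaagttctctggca
Gbp3: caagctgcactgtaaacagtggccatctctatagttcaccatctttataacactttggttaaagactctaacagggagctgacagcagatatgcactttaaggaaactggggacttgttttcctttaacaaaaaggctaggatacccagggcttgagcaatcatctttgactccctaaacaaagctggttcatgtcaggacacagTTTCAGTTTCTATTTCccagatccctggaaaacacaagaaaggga
Nfkbie: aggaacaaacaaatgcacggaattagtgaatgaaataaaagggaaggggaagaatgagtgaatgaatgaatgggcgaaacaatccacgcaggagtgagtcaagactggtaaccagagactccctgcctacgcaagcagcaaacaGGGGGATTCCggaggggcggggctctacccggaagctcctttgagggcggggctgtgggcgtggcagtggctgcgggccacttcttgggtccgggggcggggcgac
In Tnfrsf9 the capitals run from 43 to 33 bases before the start and hold overlapping NF-kB matches, the stricter form among them. In Cxcl10 an ISRE begins 213 bases before the start and NF-kB matches begin 159 and 104 bases before it. The ISRE matches begin 59 bases before the start in Gbp2 and 45 in Gbp3, where a pair of them overlaps. Nfkbie holds an NF-kB match 106 to 97 bases before the start. Tnfrsf9 and Gbp3 each have a further window in the table that held none of these letters.

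Adhesion molecules that hold leukocytes at the vessel wall rose in 5 of 12 tested genes and fell in 1 (median 0.14). Vcam1, the ligand of the integrin VLA-4, read 6181.8, 2065.0, 2069.1 and 1457.2 with PBS and 11143.6, 7313.3, 8134.3 and 6610.2 with TNF, a 3.26-fold rise (log2 SE 0.15, adjusted p = 1.75e-05). Icam1, the ligand of leukocyte integrins, read 3916.4, 662.3, 374.5 and 268.7 with PBS and 4696.9, 1815.9, 2125.0 and 1377.0 with TNF (log2 difference 1.62, SE 0.26, adjusted p = 0.00229). Each pair rose, but the groups overlapped for Icam1, since PBS number 0 was above the TNF arrays of the other numbers. Both genes were highest on number 0, the pair with high endothelial markers (summed 25229.8 and 26514.3), and the part of those markers in the result was not tested; without number 0 the list still gave 5 rises and 1 fall. Selp, the gene of P-selectin, was also highest on number 0 (4773.9 and 5589.2, against 552.9 to 1121.7 elsewhere) and rose by 0.42 (SE 0.11, adjusted p = 0.032). Cd44, a hyaluronan receptor, rose by 0.38 (SE 0.06), F11r by 0.30 (SE 0.08), and Cd34 fell by 0.19 (SE 0.05). Without number 1, 2 or 3, or any TNF or PBS array of these numbers other than TNF number 2, the list gave 3 rises, and without the block 0. The Cd34 fall was lost without number 1, 2 or 3 or any of their TNF or PBS arrays, and with equal array medians.

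Among cytokines and growth factors 3 of 20 tested genes rose and 2 fell, with a median of 0.05. Il6, the gene of the inflammatory cytokine IL-6, read 255.2, 313.7, 225.1 and 176.2 with PBS and 279.0, 947.9, 723.9 and 354.5 with TNF. The groups overlapped at the low end, with TNF number 0 below PBS number 1, and the log2 difference was 1.07 (SE 0.19, adjusted p = 0.00405), a call that was lost without number 1 or number 2. Csf1, the growth factor of macrophages, rose from 5578.5 to 7264.6 with PBS to 7293.6 to 10787.1 with TNF, without overlap (log2 difference 0.42, SE 0.05, adjusted p = 0.000169). Igf1 rose by 0.40, Pdgfa fell by 0.29 and Tgfb3 by 0.55. The count of rises was 1 without number 1 and 0 without the block, and that of falls was 0 without number 2, 1 without number 1 or 3, without PBS number 1 or without TNF number 2 or 3, and 0 without the block.

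Genes of lymphoid tissue organizers formed a short list with TNF alone at 24 h. Its count is too small to be read as low or high beside the 3.05% of all genes called higher. Of the 12 listed, Ccl19, Ccl21a, Tnfsf11 and Madcam1 were not tested. Of 8 tested, 1 rose and 0 fell, with a median of 0.02: Bst1, a stromal ectoenzyme, at 99.8 to 379.6 with PBS and 117.1 to 497.5 with TNF. The groups overlapped, and the log2 difference of 0.51 (SE 0.12, adjusted p = 0.0237) was lost without number 1, 2 or 3, without any PBS array of these numbers and without TNF number 1 or 2. Cxcl13, the B cell chemokine, read 1057.4, 109.5, 127.1 and 264.6 with PBS and 1386.5, 161.6, 228.9 and 361.8 with TNF, higher in each pair but not past the threshold (0.54, SE 0.16, adjusted p = 0.0664). Il7 (0.47, adjusted p = 0.0587), Cxcl12 (0.05), Ltbr (-0.01), Pdpn (-0.00) and Tnfsf13b, the gene of the B cell factor BAFF (-0.08), were not called either. A second Bst1 probe set differed by -0.16, and with the mean of both the difference was 0.18 (adjusted p = 0.66). A second Cxcl13 probe set differed by 0.86, and 2 further Cxcl12 probe sets by 0.23 and 0.36. The list gave 3 rises with quantile normalization, 2 without number 0, without TNF number 0 or with equal array medians, and 0 without the block.

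Of 13 tested ligands and receptors of the TNF superfamily 2 rose and 0 fell, with a median of 0.17. Tnfrsf9, the co-stimulatory receptor 4-1BB, read 114.7, 70.6, 54.8 and 32 with PBS and 440.2, 355.1, 362.8 and 339.2 with TNF, a 5.28-fold rise (log2 SE 0.17, adjusted p = 2.63e-06). The TNF arrays lay close together and above every PBS array. Each PBS signal was below its array median, so the filter favours such a separation. Fas, the death receptor, rose by 0.42 (SE 0.10, adjusted p = 0.0206). The Fas call was lost without number 0, 1 or 2, PBS number 0 or 1, or TNF number 1 or 2. The list count was 1 without the block, number 1 or 2, PBS number 1, or TNF number 1 or 2. Cell death effectors gave 5 rises and 0 falls among 18 tested (median 0.10). Casp4, an inflammatory caspase, read 437.3, 284.2, 245.1 and 279.5 with PBS and 1024.3, 1014.7, 1255.1 and 951.8 with TNF, a 3.39-fold rise (SE 0.13, adjusted p = 2.63e-06) without overlap. Bid, which links death receptors to mitochondria, rose by 0.67 (SE 0.09), the pyroptosis gene Gsdmd by 0.64 (SE 0.16), the necroptosis gene Mlkl by 0.61 (SE 0.15) and Casp12 by 0.22 (SE 0.06). That count was 2 or 3 when any number was left out or any TNF or PBS array other than those of number 0, and 1 without the block.

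Pattern receptors that sense microbes gave 4 rises and 0 falls among 15 tested genes, with a median of 0.05. Tlr2, which recognises bacterial lipoproteins, read 501.7, 414.3, 331.5 and 379.6 with PBS and 957.7, 1541.7, 1216.9 and 1172.8 with TNF, a 2.95-fold rise (log2 SE 0.15, adjusted p = 4.81e-05) without overlap. Tlr3, a receptor for double-stranded RNA, rose by 0.82 (SE 0.11, adjusted p = 0.000597), and the groups did not overlap. Nod1 rose by 0.42 and the adaptor gene Myd88 by 0.27. The count was 2 without number 1 or 3, PBS number 1 or TNF number 2, and 1 without the block.

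Metallothioneins, small metal-binding proteins induced by stress, were among the abundant risers. Mt2 read 2293.2, 2417.2, 1340.5 and 1560.2 with PBS and 3838.9, 9780.0, 6028.2 and 7080.1 with TNF, a 3.42-fold rise (log2 SE 0.18, adjusted p = 7.38e-05). Mt1 rose by 1.16 (SE 0.13, adjusted p = 0.000109), and both genes had no overlap between groups. Sod2, the mitochondrial superoxide dismutase and a known NF-kB target, rose from 3400.6 to 4321.4 with PBS to 4405.0 to 7440.1 with TNF (0.57, SE 0.08, adjusted p = 0.000943). The antioxidant list gave 5 rises and 1 fall among 21 tested genes, with a median of 0.02. The Nqo1 fall was lost without any number and with equal array medians. The other called members were Prdx2 (0.20), Txn1 (0.16) and Nqo1, which fell by 0.40, all 3 with small differences. The count of rises was 3 with equal array medians, without number 1 or 3, and without PBS number 1 or 3 or TNF number 1, 2 or 3, and 2 without the block.

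Junb, an AP-1 subunit, read 598.8, 294.6, 334.6 and 390.7 with PBS and 917.3, 632.7, 749.1 and 843.4 with TNF (log2 difference 0.98, SE 0.10, adjusted p = 9.46e-05). The groups did not overlap, and Junb with Myc (0.49) and Fosl2 (0.21) made 3 rises, beside 1 fall (Klf6), among 21 tested immediate early genes, where 1 rise was called without the block and the fall was lost without any number. Gch1, the rate-limiting enzyme for the nitric oxide synthase cofactor tetrahydrobiopterin, read 905.1, 129.7, 155.0 and 262.5 with PBS and 1042.6, 434.6, 473.4 and 791.2 with TNF. It rose in each pair (1.24, SE 0.19, adjusted p = 0.00139), but the groups overlapped through PBS number 0. In the vasoactive list Gch1 rose and Ptgis, prostacyclin synthase, fell by 0.15 among 14 tested genes, and neither was called without the block, nor Ptgis without number 1, 2 or 3, PBS number 1 or TNF number 1, 2 or 3. Clca3a2, a gene of the calcium-activated chloride channel regulator family, read 771.1, 1872.2, 244.0 and 224.8 with PBS and 3313.9, 6342.8, 1604.6 and 1333.7 with TNF, a 4.78-fold rise (SE 0.13, adjusted p = 4.66e-07). Rrad, a small GTPase that inhibits calcium channels, read 4.9 to 50.8 with PBS and 87.2 to 176.9 with TNF (2.0, SE 0.25, adjusted p = 0.000343).

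The 12 largest falls ranged from -1.46 to -0.86 on the log2 scale, smaller than the leading rises, and 6 of them were called whichever number or array was left out. Acan, which encodes the proteoglycan aggrecan, read 2319.1, 5352.9, 2156.4 and 2456.2 with PBS and 1060.9, 2377.9, 813.8 and 1227.4 with TNF, so that it fell 2.25-fold (log2 SE 0.12, adjusted p = 7.38e-05). G0s2, an inhibitor of the lipase that breaks down stored triglyceride, read 569.9, 4142.0, 598.7 and 1004.8 with PBS and 224.9, 2374.1, 263.2 and 513.3 with TNF (log2 difference -1.05, SE 0.10, adjusted p = 6.35e-05). Both fell in every pair, and both overlapped between groups through number 1, whose TNF array was above PBS arrays of other numbers. Lpl, lipoprotein lipase, read 592.1, 1111.5, 823.8 and 1149.3 with PBS and 356.2, 598.6, 417.5 and 583.3 with TNF (-0.88, SE 0.09, adjusted p = 5.43e-05), with TNF number 1 just above PBS number 0. Ldlrad3, a receptor of the LDL receptor class, fell by 0.91 (SE 0.12, adjusted p = 0.000456), Col9a1, a cartilage collagen, by 0.90 (SE 0.11, adjusted p = 0.000228) and Inmt, a methyltransferase, by 0.86 (SE 0.12, adjusted p = 0.00104). None of these 6 was called without the block.

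Other large falls rested on fewer arrays. Rab3il1, an exchange factor for Rab proteins, had the largest fitted fall at -1.46 (SE 0.31, adjusted p = 0.0126), with 69.2 to 181.3 units for PBS and 15 to 115.1 for TNF. Its call was lost without number 1, number 2 or PBS number 1. Sost, which encodes the Wnt inhibitor sclerostin, read 425.4, 643.4, 4434.2 and 5154.8 with PBS and 255.6, 362.6, 1661.0 and 3062.4 with TNF. Sost ranged widely over the numbers, fell in each pair (-0.92, SE 0.19, adjusted p = 0.0121) and lost its call without number 3 or TNF number 2. Ucma, a cartilage matrix protein gene (-0.95), lost it without number 1 or 3, and Pdzrn4 (-0.99) without number 1. Col10a1 (-0.89, adjusted p = 0.0352) and Cpsf4l (-1.15, adjusted p = 0.0419) lost theirs without any of 3 and 4 of the numbers, respectively.

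Smooth muscle contractile genes mostly fell by small amounts: 14 of 34 tested were lower with TNF and 0 higher. The median was -0.19, single differences ran from -0.99 to 0.75, and 19 genes were lower in every pair. Cnn1, the gene of calponin, read 2056.3, 2293.1, 4123.7 and 2543.5 with PBS and 1182.7, 1522.7, 2308.4 and 2042.1 with TNF (log2 difference -0.63, SE 0.12, adjusted p = 0.0078). The groups overlapped, and each pair fell. Smtn, smoothelin, fell by 0.47 (SE 0.09, adjusted p = 0.00917), Lmod1, leiomodin, by 0.37 (SE 0.09) and Myl9, a myosin light chain, by 0.31 (SE 0.06). Tpm2, a tropomyosin, read 10827.3 to 13781.4 with PBS and 9147.3 to 11973.3 with TNF, and its difference of -0.23 (SE 0.03, adjusted p = 0.00104) had the smallest p of the list. Myh11 fell by 0.37 (SE 0.10, adjusted p = 0.0449) over all pairs and by 0.49 without number 0, where its signal was low. Acta2 (-0.02, SE 0.04, adjusted p = 0.837) and Tagln (-0.12, SE 0.04, adjusted p = 0.106), the abundant actin and transgelin genes, were not called, nor was Myocd, the master co-activator of the contractile programme (0.02, SE 0.20). The count was 4 with equal array medians, which left the median negative, and 0 without the block. It was 4 without number 1, 5 without number 2, 10 without number 0 or 3, and 9 without PBS number 0, PBS number 1, TNF number 2 or TNF number 3.

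**Figure D3:**
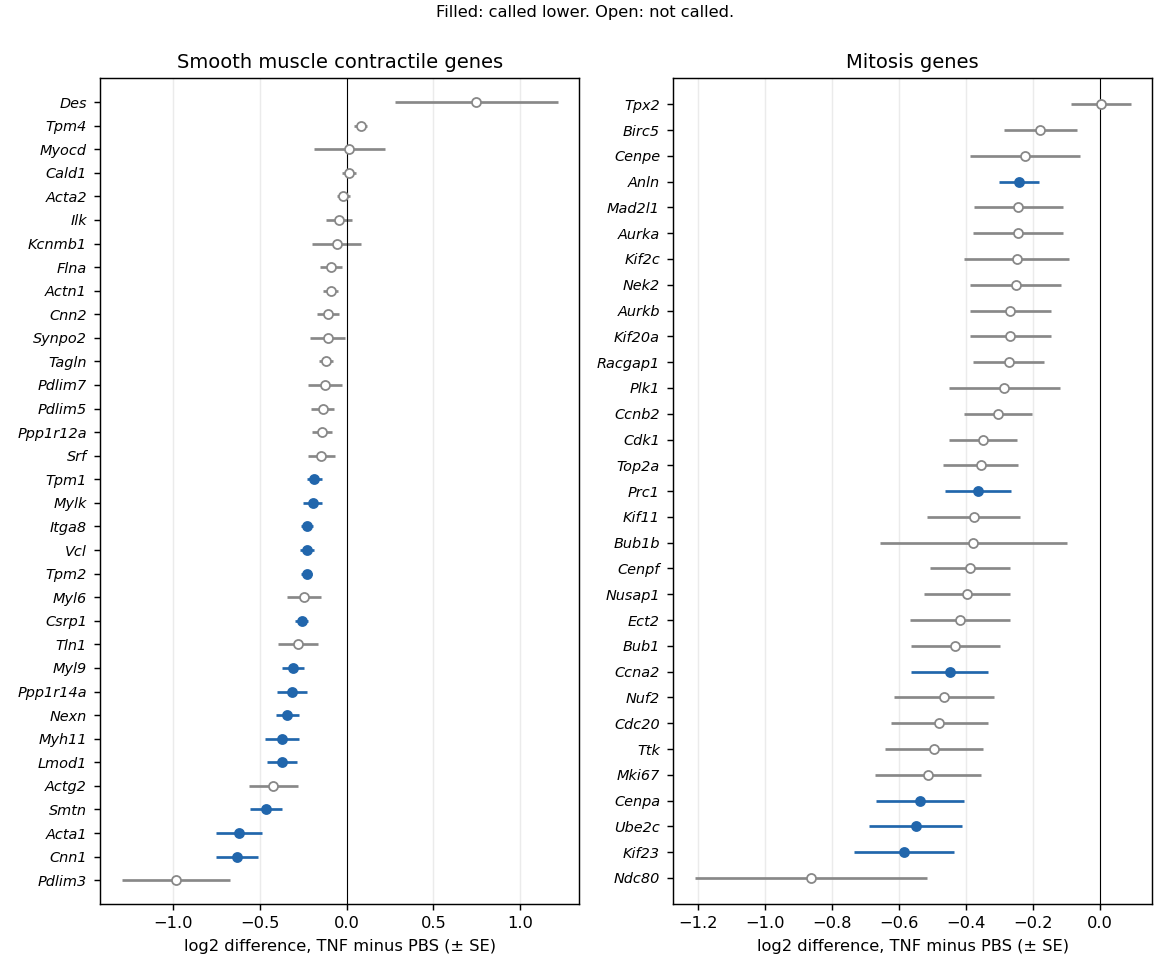
Fitted log2 differences, TNF minus PBS at 24 h, with standard errors for the 34 tested contractile genes (left) and 31 tested mitosis genes (right), in order of size, where filled blue points are called lower and open grey points are not called. Of the contractile genes 30 of 34 lie below 0 with 14 called, and 30 of 31 mitosis genes lie below 0 with 6 called.

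Mitosis genes gave 6 falls and 0 rises among 31 tested, with a median of -0.36, but their differences were not alike over the numbers. Medians of the list were 0.01 on number 0, -0.55 on number 1, -0.23 on number 2 and -0.67 on number 3. Kif23, a kinesin of cytokinesis, read 490.9, 302.5, 305.2 and 233.4 with PBS and 476.9, 149.2, 230.3 and 118.0 with TNF (log2 difference -0.58, SE 0.15, adjusted p = 0.0351). The number 0 pair was nearly level for Kif23, and the groups overlapped. Ube2c, a ubiquitin enzyme of mitotic exit (-0.55), Cenpa, a centromere histone (-0.54), Ccna2, cyclin A (-0.45), Prc1 (-0.36) and Anln (-0.24) fell as well, and Mki67, the gene of the Ki-67 antigen, was at -0.51 (adjusted p = 0.0797). The count was 12 without number 0, 3 without number 2 and 0 without number 1 or number 3. It was 13 and 11 without the PBS or TNF array of number 0, 3 without PBS number 2, 0 without either array of number 1 or 3, 2 with equal array medians and 0 without the block. DNA replication genes gave 1 rise (Ccnd1, cyclin D, 0.14) and 2 falls (Mcm4, a replicative helicase subunit, -0.54, and Ccne2, a cyclin E, -0.48) among 34 tested, with a median of -0.13. The falls numbered 5 without number 0, 0 without number 1 or 3 and 1 without number 2. With single arrays left out they ranged from 0 to 6, and Ccnd1 was lost without number 0, 1 or 3, and none of the 3 genes was called without the block.

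Each matrix list held called genes, where over all genes tested 3.05% were called higher and 2.87% lower. The collagen list leaves out Col9a1 (-0.90), Col10a1 (-0.89) and Col11a2 (-0.37), which were called lower. Of 21 tested collagens in the list 2 fell and 0 rose (median -0.08): Col11a1, a fibrillar collagen gene, which read 3152.0, 9187.1, 4581.2 and 8200.3 with PBS and 2139.6, 6335.3, 3491.6 and 5732.0 with TNF (log2 difference -0.50, SE 0.06, adjusted p = 0.000144), and Col12a1 (-0.26). Col11a1 fell in each pair, by between 0.39 and 0.56, and the list gave 1 fall without number 0, 2 or 3. In the elastic fibre and adhesive matrix list 1 of 26 tested genes fell (Loxl3, -0.27, called neither with equal array medians nor without number 1, 2 or 3), and its median of -0.02 turned to a positive value with equal array medians. Eln, the elastin gene, was at 14689.8 to 15956.8 with PBS and 15128.2 to 15611.9 with TNF. Proteoglycans gave 2 falls among 20, Acan and Vcan, the versican gene (-0.68, SE 0.12, adjusted p = 0.00457). Of 25 proteases and inhibitors Timp1, an inhibitor of matrix metalloproteinases (0.40, SE 0.05, adjusted p = 0.000206), and Plaur, the urokinase receptor (0.33), rose, and Adamts9 (-0.61) and Adamts1 (-0.20) fell with adjusted p of 0.0373 and 0.0479. The protease list gave 1 rise without number 1, and its falls were 0 with equal array medians or without number 0, 2 or 3, 1 without number 1, and 0 or 1 without any TNF or PBS array. None of these falls was called without the block.

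Growth factor targets and lipid genes moved in both directions. Among 21 tested targets of TGF-beta and BMP, Id4 (-0.59, SE 0.09, adjusted p = 0.00171) and Id2 (-0.36, SE 0.07, adjusted p = 0.00592), inhibitors of basic helix-loop-helix factors, and Ltbp1 (-0.14) fell, and Ltbp2 rose by 0.44. Id4 read 1543.2, 1096.8, 1807.3 and 1303.2 with PBS and 1231.4, 710.6, 1143.4 and 763.1 with TNF, lower in each pair with overlap between groups. The Ltbp1 call was lost without any of the 4 numbers and with equal array medians, and falls in the list were 5 with quantile normalization. Rises in it were 0 without number 0, 1 or 3, PBS number 0, 1 or 3, or TNF number 1 or 3. Of 18 adipogenic and lipid uptake genes Cebpb, a factor of early adipogenesis and of the acute phase (0.40, SE 0.07, adjusted p = 0.00298), and Plin2, a lipid droplet protein (0.29), rose, while Lpl and Fabp5, a fatty acid-binding protein (-0.35, SE 0.06, adjusted p = 0.00457), fell. That list gave 1 rise without number 1, 2 or 3, PBS number 2 or 3, or TNF number 2 or 3, and 1 fall without number 3. The cholesterol list gave 1 rise among 25 tested, the efflux transporter gene Abca1 (0.31, SE 0.06, adjusted p = 0.00759, lost without number 1), and a median of 0.00. None of these genes was called without the block.

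Compared over all 32 lists, the pairs were not equal. Number 2 had the highest median for interferon-inducible GTPases (2.12), antiviral effectors (1.31) and the immunoproteasome (1.09). Number 0 was at 0.77, 0.31 and 0.33 in these lists, the lowest of the 4 numbers in each. The acute phase list was closer, at 1.01, 1.36, 1.29 and 1.2 on numbers 0 to 3, and the feedback inhibitors were at 0.41, 0.39, 0.52 and 0.44.

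**Figure D4:**
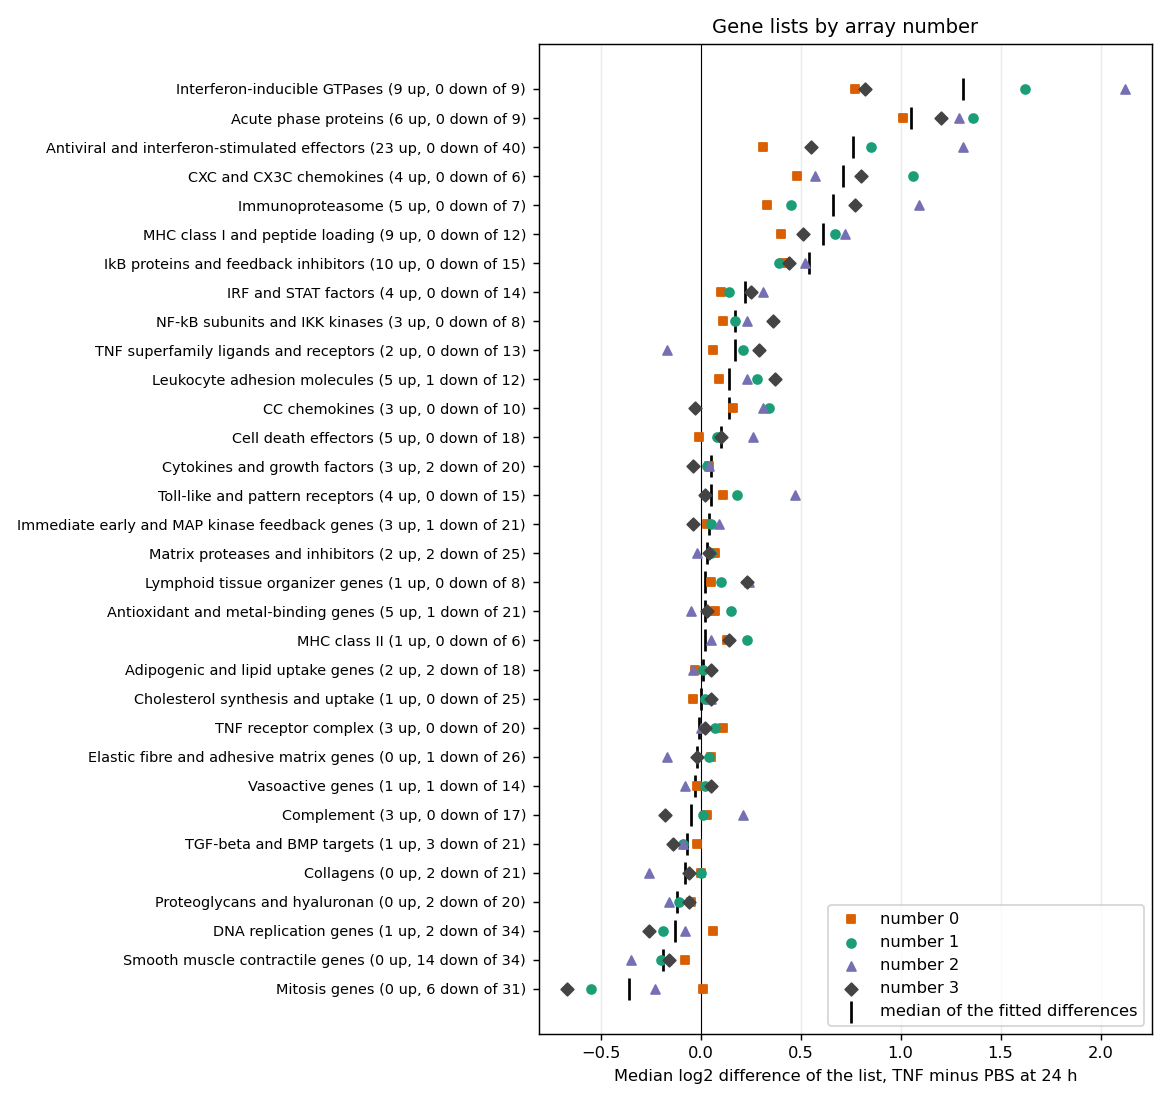
Median log2 difference, TNF minus PBS at 24 h, of each of the 32 gene lists on the x axis, as 1 point for each array number and a black bar for the median of the fitted differences, with called genes in brackets. Interferon-inducible GTPases (median 1.31) and acute phase proteins (1.05) lie highest and mitosis genes (-0.36) lowest, and the numbers spread most in the GTPase, antiviral and immunoproteasome lists (SD over the 4 pairs 0.66, 0.43 and 0.34).

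Arrays at 2 h and 6 h, with 1 TNF and 1 PBS array at each time and all numbered 0, showed how the genes called at 24 h stood earlier, with no replicate and no test. The 380 risers had a median difference of 0.20 at 2 h and 0.36 at 6 h, against 0.31 on number 0 and 0.50 on numbers 1 to 3 at 24 h. Nfkbie differed by 3.85, 2.60 and 1.68 at 2, 6 and 24 h on number 0, Tnfaip3 by 2.75, 2.0 and 0.52, and Birc3 by 3.08, 2.43 and 1.23. Nfkbie, Tnfaip3 and Birc3 were thus highest at the earliest time on this number, which is also the pair with high endothelial markers. Bcl3, another of the feedback inhibitors, was instead highest at 6 h (1.35, 1.65 and 0.74). Ccl2 was at 4.05, 3.89 and 2.69, while Ccl5 was highest at 6 h, with 2.53, 4.07 and 2.74. Among the called acute phase genes Hp (1.00, 2.86 and 4.47), Lcn2 (1.46, 1.93 and 2.19) and Cp (0.20, 0.25 and 0.74) were highest at 24 h on this number. Saa3 (0.04, 1.28 and 1.2) and Lbp (-0.14, 1.44 and 1.42) were close to level between 6 h and 24 h, and Ptx3 (1.21, 1.07 and 0.42) was highest at 2 h. Bst2 was near 0 at 2 h (-0.01) and 6 h (-0.03) and at 1.07 at 24 h. The 358 fallers had medians of -0.08 and -0.22 at 2 h and 6 h, and -0.28 on number 0 and -0.37 on numbers 1 to 3 at 24 h.

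**Figure D5:**
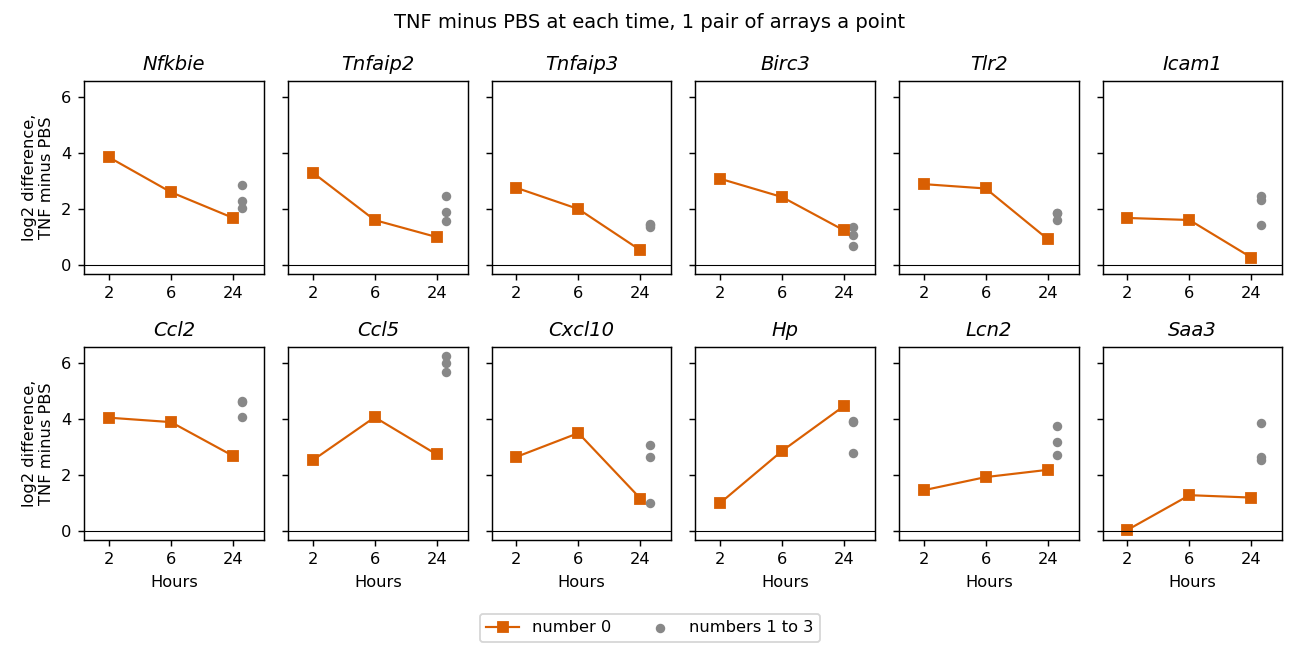
Log2 difference, TNF minus PBS, at 2, 6 and 24 h for 12 genes, where orange squares joined by lines are the single pair of arrays numbered 0 at each time and grey points the pairs numbered 1 to 3 at 24 h. Nfkbie, Tnfaip2, Tnfaip3, Birc3 and Tlr2 start high and decline on number 0, Hp climbs from 1.00 to 4.47, and Ccl5 stands at 5.67 to 6.26 on numbers 1 to 3.

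Set directly against the LTBR antibody at 24 h, TNF gave higher signal for 43 genes (0.345% of those tested) and lower signal for 47 (0.377%). Without the block the counts were 2 and 0. They were 9 and 7 without number 1, 15 and 11 without number 2, and 22 and 26 without number 3. Without TNF number 1 they were 15 and 17, without TNF number 2 they were 22 and 25, and without antibody array 0, 1 or 2 they were 22 and 31, 20 and 21, and 20 and 22. Antibody array 3 left 24 lower, TNF number 0 left 65 higher, TNF number 3 left 23 lower and PBS number 3 left 83 lower when taken out. Of the acute phase genes 6 of 9 were higher with TNF than with the antibody, Hp by 3.18 on the log2 scale (SE 0.21, adjusted p = 1.2e-05), Saa3 by 2.88, Lcn2 by 2.01, Lbp by 1.23, Ptx3 by 0.69 and Cp by 0.59. Hp averaged 132.7 ± 59.3 (SD, n = 4) with the antibody, 101.9 ± 94.1 with PBS and 1277.7 ± 423.4 with TNF. Of 12 class I genes 5 were higher, with H2-K1 at 4863.8 ± 315.8 with the antibody and 9078.3 ± 1479.1 with TNF (0.89, SE 0.12, adjusted p = 0.00366). Ccl5 (2.48), Ccl2 (1.63) and Ccl7 (1.61) were higher and Ccl9 lower (-0.66) with TNF. Nfkb2 was lower with TNF, at 541.8 ± 110.6 against 957.9 ± 168.7 with the antibody (-0.82, SE 0.14, adjusted p = 0.0173). Of 15 feedback inhibitors 2 were higher with TNF, while Nfkbie at 0.06 (SE 0.16) and Nfkbia at 0.05 (SE 0.06) were not called. In the DNA replication list 5 of 34 genes, Mcm3, Mcm5, Mcm7, Pcna and Rrm2, were lower with TNF than with the antibody, by 0.35 to 0.67, and no contractile gene was called.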

How the data were processed

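Gene expression was measured in cultured mouse aortic smooth muscle cells on Affymetrix arrays of 45101 probe sets. The deposited values are linear signal intensity, computed by the authors with GCOS 1.4, per the submitters' processing notes. Probe summarization, background correction and detection calls were not given in the sources used here. No 2 arrays held identical values.

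Signals were used as deposited, on a log2 scale after adding 10.1, the 10th percentile of signal at 24 h. A gene was tested if its probe set, with 1 gene symbol and the highest mean, exceeded that array's median in 3 or more of the 15 arrays of 24 h, which left 12454 genes. A separate test took 3258 passing probe sets with no or several gene names, and 64 control probe sets were left out. limma 3.58.1 in R 4.3.3 fitted these 15 arrays with a variance trend and the array number as a block (8 residual degrees of freedom), with Benjamini-Hochberg adjustment over all genes. The block comes from the numbers in the titles. With group means removed, TNF and PBS arrays of the same number correlated at 0.52 to 0.77 (4 pairs), and those of different numbers at -0.49 to 0.16 (12 pairs).

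The comparison, its 32 gene lists and 6 marker lists were chosen with earlier results of these data known. Named genes are the 20 largest called rises and 12 largest called falls with the same sign in every pair, up to 4 list members with the smallest p, and the tested members of the receptor complex, NF-kB and organizer lists; other list members named in the text were chosen after their values were seen. Simulated data with known changes were used to test the fit. The alternatives were the block, the pseudocount, the scaling, the filter, the probe set rule, the variance trend, the arrays fitted and leaving out each number, each TNF or PBS array and, added after the data were seen, each other array. The arrays at 2 h and 6 h were not tested.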

Additional observations from a re-analysis of the deposited data

Results flagged for a closer look

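In 84 values checked over the 4 arrays of a group or the 4 pairs, 7 had an array or pair far from the other 3, where chance gives about 1 in 20. Ccl5 differed by 2.74 on number 0, against 5.67 to 6.26 on the other numbers. Pdzrn4 was at -1.76 on number 0, against -0.84 to -0.67, and Sost at -1.41 on number 2, against -0.81 to -0.71. The median of the cytokine and growth factor list was -0.04 on number 3, against 0.03 to 0.04. Summed endothelial markers were 25229.8 with PBS and 26514.3 with TNF on number 0, against 3638.6 to 6784.1 and 3270.6 to 6439.5 on the other numbers. Summed macrophage markers with PBS were 5175.4 on number 3, against 1522.6 to 1791.8.

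Probe sets without 1 gene name, which enter no comparison above, also differed between TNF and PBS. Of 3258 tested apart by the same limma fit, 45 were higher (1.38%) and 30 lower (0.921%) with TNF, and 11 and 0 without the block.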

How the results depend on the processing

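Between TNF and PBS the 380 rises became 42 without the replicate block and 181 with only the 8 arrays of both groups, and were 158 to 326 with 1 number left out and 258 to 382 with 1 of the 15 arrays left out. The 358 falls became 0 without the block, 121 with the 8 arrays, 139 with equal array medians and 226 without the variance trend, and were 118 to 243 with 1 number and 201 to 366 with 1 array left out. Against the antibody the 43 higher genes became 2 without the block and 14 without the trend, 9 to 40 with 1 number and 15 to 65 with 1 array left out. The 47 lower genes became 0, 19, 7 to 40 and 17 to 83 in the same settings. The pseudocount, quantile normalization, filter and probe set rule kept each of these 4 counts within 1.5 times, though not every list count. Fitting only the TNF and PBS arrays cannot give the contrast with the antibody. Of 119 named genes called, 0 changed direction in any setting, 66 were called in every setting that kept the block and 30 in every setting. With no detection calls used here, signal over background was not judged per gene, and genes of low signal had to pass the filter on array medians.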

Other observations

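Genes best known from cartilage and bone were gathered into a list of 34 after several were seen among the largest falls, so their counts describe the list and support nothing. Of 25 tested, 0 rose and 9 fell, with a median of -0.27, and 12 were lower in every pair. Besides Acan, Ucma, Sost, Col9a1, Col10a1 and Col11a1, the called falls were Matn3, a matrilin gene (-0.65), Col11a2, a fibrillar collagen gene (-0.37), and Omd, osteomodulin (-0.25). The list gave 6 falls without number 0 and 0 without the block.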
